A study of Caenorhabditis elegans with 2 samples.

Results

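The 6 vitellogenin genes of Caenorhabditis elegans, vit-1 to vit-6, were examined for sites recovered with the tagged SMAD protein DAF-8. They were taken by name out of 19973 protein-coding genes on the nuclear chromosomes. 1 member, vit-6, lies on chromosome IV, and 5 members, vit-1 to vit-5, lie on chromosome X. For each gene, every peak counted whose summit fell from 1000 bp upstream of the gene start to the gene end.

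The study mapped DAF-8 sites by chromatin immunoprecipitation with sequencing (ChIP-seq), in which DNA fragments bound by a protein are enriched with an antibody and sequenced. There was 1 group with 2 biological replicates, and nothing in the labels says how their cultures were separated. The worms were strain OP790, which carries the transgene wgIs790, an inserted fosmid with daf-8 fused to TY1, EGFP and 3xFLAG tags and with a rescuing copy of unc-119, in an unc-119(tm4063) background. Whole L4 larvae were collected at 47 hours after hatchlings had been starved to synchronise them. Chromatin was sonicated to 200 to 800 bp and an antibody to green fluorescent protein was used for the precipitation. The tagged protein came from an integrated transgene, and its amount relative to DAF-8 from the native gene is not known. Because whole larvae were used, the tissue in which a site was recovered is unknown, and a site in few cells cannot be told apart from weak recovery in many. No input and no sample without the tag was analysed here, and whether recovery at any site needs the tagged protein was not tested.

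Vitellogenins are the yolk proteins. They are made in the intestine of hermaphrodites from about the transition from the last larval stage to the adult, are secreted into the body cavity and are taken up by growing oocytes through the receptor RME-2. Short promoter elements named VPE1 and VPE2 are known from vitellogenin promoters of C. elegans, and VPE2 holds the core that GATA factors of the intestine bind. DAF-8 is a receptor-regulated SMAD of the TGF-beta signal that keeps larvae from becoming dauers, the long-lived resting form. SMAD proteins recognise DNA by the core GTCT.

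The sequences that the results turn on are shown first, read from the RefSeq genome of WBcel235, the assembly also called ce11, on the strand of the gene and from 5′ to 3′. The vit-6 peak sequence is the middle of the peak that passed the authors' threshold (chrIV:8261202-8261501, plus strand), and it runs from exon 1 through intron 1 into exon 2. Capitals in it mark GTCT or its reverse complement AGAC. The vit-6 body sequence is centred on the strongest other peak inside the gene (chrIV:8264101-8264250, plus strand, exon 3), with the same marking.
vit-6 peak: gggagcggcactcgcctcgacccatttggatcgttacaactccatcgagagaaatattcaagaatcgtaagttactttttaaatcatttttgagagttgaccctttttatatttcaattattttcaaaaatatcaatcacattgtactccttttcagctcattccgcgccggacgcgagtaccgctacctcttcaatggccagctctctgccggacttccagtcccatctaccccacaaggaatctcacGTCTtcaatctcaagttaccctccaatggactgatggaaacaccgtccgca
vit-6 body: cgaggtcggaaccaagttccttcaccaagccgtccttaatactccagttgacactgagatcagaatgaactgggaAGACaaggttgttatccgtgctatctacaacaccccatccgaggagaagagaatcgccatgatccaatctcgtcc

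The promoters run from 250 bases upstream to 50 bases downstream of the gene start, and capitals mark VPE1 (TGTCAAT) and VPE2 (CTGATAA) on either strand. That of vit-6 (chrIV:8260907-8261206, plus strand) is shown because it holds both elements and no peak summit. That of vit-2 (chrX:5100792-5101091, plus strand) stands for the X members with 1 copy of each. Those of vit-3 (chrX:3572500-3572799, minus strand) and vit-4 (chrX:3563916-3564215, minus strand) belong to the most alike pair of genes and differ in their elements.
vit-6 promoter: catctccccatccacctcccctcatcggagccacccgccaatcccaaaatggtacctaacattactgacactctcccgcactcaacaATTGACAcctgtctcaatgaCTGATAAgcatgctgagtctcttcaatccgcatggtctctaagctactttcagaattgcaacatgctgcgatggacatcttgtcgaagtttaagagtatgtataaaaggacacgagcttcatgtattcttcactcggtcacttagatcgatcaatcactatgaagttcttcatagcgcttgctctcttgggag
vit-2 promoter: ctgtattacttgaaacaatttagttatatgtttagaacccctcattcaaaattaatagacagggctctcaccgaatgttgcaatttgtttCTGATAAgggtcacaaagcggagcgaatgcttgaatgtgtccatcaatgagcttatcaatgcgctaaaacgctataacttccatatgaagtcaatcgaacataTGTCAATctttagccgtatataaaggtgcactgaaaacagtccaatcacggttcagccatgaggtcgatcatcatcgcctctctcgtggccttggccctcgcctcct
vit-3 promoter: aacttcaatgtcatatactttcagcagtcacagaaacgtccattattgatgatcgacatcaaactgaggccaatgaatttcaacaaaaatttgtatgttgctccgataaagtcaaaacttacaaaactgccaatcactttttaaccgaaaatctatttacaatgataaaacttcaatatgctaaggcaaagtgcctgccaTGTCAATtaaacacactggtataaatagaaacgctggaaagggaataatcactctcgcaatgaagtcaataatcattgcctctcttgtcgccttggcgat
vit-4 promoter: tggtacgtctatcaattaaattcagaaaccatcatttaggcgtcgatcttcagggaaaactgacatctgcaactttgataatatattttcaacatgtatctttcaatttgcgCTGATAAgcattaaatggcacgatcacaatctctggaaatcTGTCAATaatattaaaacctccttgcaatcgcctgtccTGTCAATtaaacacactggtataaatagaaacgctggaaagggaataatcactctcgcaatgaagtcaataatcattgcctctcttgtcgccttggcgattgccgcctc

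VPE1 was present in 6 of 6 members and in 5.77% of the 19973 promoters of the same length. VPE2 was present in 5 of 6 members and in 8.15% of all promoters. Because both elements are known from vitellogenin promoters, these counts only describe the members and are no result about DAF-8. The member without VPE2 was vit-3, and both vit-4 and vit-5 held 2 copies of VPE1. VPE1 began at −163 bp from the gene start in vit-6, farther from the start than in any X member. It began at −115 bp in vit-1, at −57 bp in vit-2 and at −50 bp in vit-3. GTCT or AGAC is common in such windows, with at least 1 match in 77.0% of all promoters. The vit-6 promoter held 3 matches, those of vit-1, vit-2 and vit-4 held 1 each, and those of vit-3 and vit-5 held 0. None of these matches overlapped a VPE match.

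The gene coordinates are those of Ensembl for WBcel235, counted from 1. vit-6 (WBGene00006930) lies at IV 8261157 to 8266459 on the plus strand, with 5 exons. vit-1 (WBGene00006925) lies at X 7727889 to 7733168 on the plus strand and vit-2 (WBGene00006926) at X 5101042 to 5106169 on the plus strand, each with 5 exons. vit-3 (WBGene00006927) lies at X 3567355 to 3572549 and vit-4 (WBGene00006928) at X 3558769 to 3563965, both on the minus strand with 6 exons. vit-5 (WBGene00006929) lies at X 3403471 to 3408603 on the plus strand with 6 exons. The genes are of similar length, from 5128 bp for vit-2 to 5303 bp for vit-6. The part of length in differences between the members was not tested.

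The values are those of the authors' peak lists. Each list exists in a ranked form with nearly every candidate and in a short form cut at an irreproducible discovery rate, the IDR, which estimates how many of the peaks at least as consistent between 2 lists would not recur. The authors' threshold was taken as 0.01 from the highest IDR they kept. The list that compares the true replicates, used unless another is named, held 101032 ranked and 240 thresholded peaks. The list from pooled reads held 110676 and 282, replicate 1 alone 49973 and 62, and replicate 2 alone 57612 and 77. The signal of a peak is the authors' value and has no stated unit. In the true-replicate and pooled lists it is that of the pooled reads, so it is compared only within a list or between the replicates alone. A ranked peak is a candidate only: the 101032 ranked peaks of the true-replicate list add up to 32734107 bp of a nuclear genome of 100272607 bp. The lists hold no read counts, so depth is unknown.

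1 of the 6 vitellogenin genes, vit-6, had a thresholded peak in the true-replicate list, against 0.846% of all protein-coding genes. vit-6 was also the 1 member with a thresholded peak in the pooled list, where 1.02% of all genes had one. The 5 X members had 0 thresholded peaks in each of the 4 lists. At the background shares, 5 genes without a thresholded peak are no result about those genes.

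The vit-6 peak had its summit at +194 bp from the gene start, in intron 1, and lay at IV 8261189 to 8261512. Its signal was 78.5, against a median of 17.0 over the ranked peaks of that list. Its IDR was 0.00186 in the true-replicate list and 0.00196 in the pooled list. By signal it ranked 101 of 101032 peaks. By the strongest peak in its window, vit-6 ranked 71 of the 19973 genes, and 99.6% of genes had a lower value or none. In each replicate alone the strongest peak of the vit-6 window overlapped this place. In replicate 1 it had a signal of 39.1 with its summit at +184 bp, in intron 1. In replicate 2 it had a signal of 42.5 with its summit at +213 bp, in exon 2. The mean was 40.8 ± 2.39 (SD, n = 2). The summits of the replicates lay on either side of the one in the pooled reads. Summits are centres of peaks of fixed width, so the lists do not resolve whether the site is in the intron or the exon.

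The vit-6 peak did not pass the threshold in either replicate alone. Its IDR was 0.0254 in replicate 1 and 0.0128 in replicate 2, where it ranked 135 and 119 by signal. In the lists of the replicates alone, the share of all genes with a thresholded peak was 0.23% in replicate 1 and 0.27% in replicate 2, and 0 of the 6 members had one. At a stricter IDR of 0.001 in the true-replicate list, 0 of 6 members had a peak and 0.185% of all genes had one. At a looser IDR of 0.05, vit-6 was still the 1 member with a peak, against 2.86% of all genes in the true-replicate list and 3.48% in the pooled list.

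**Figure D1:**
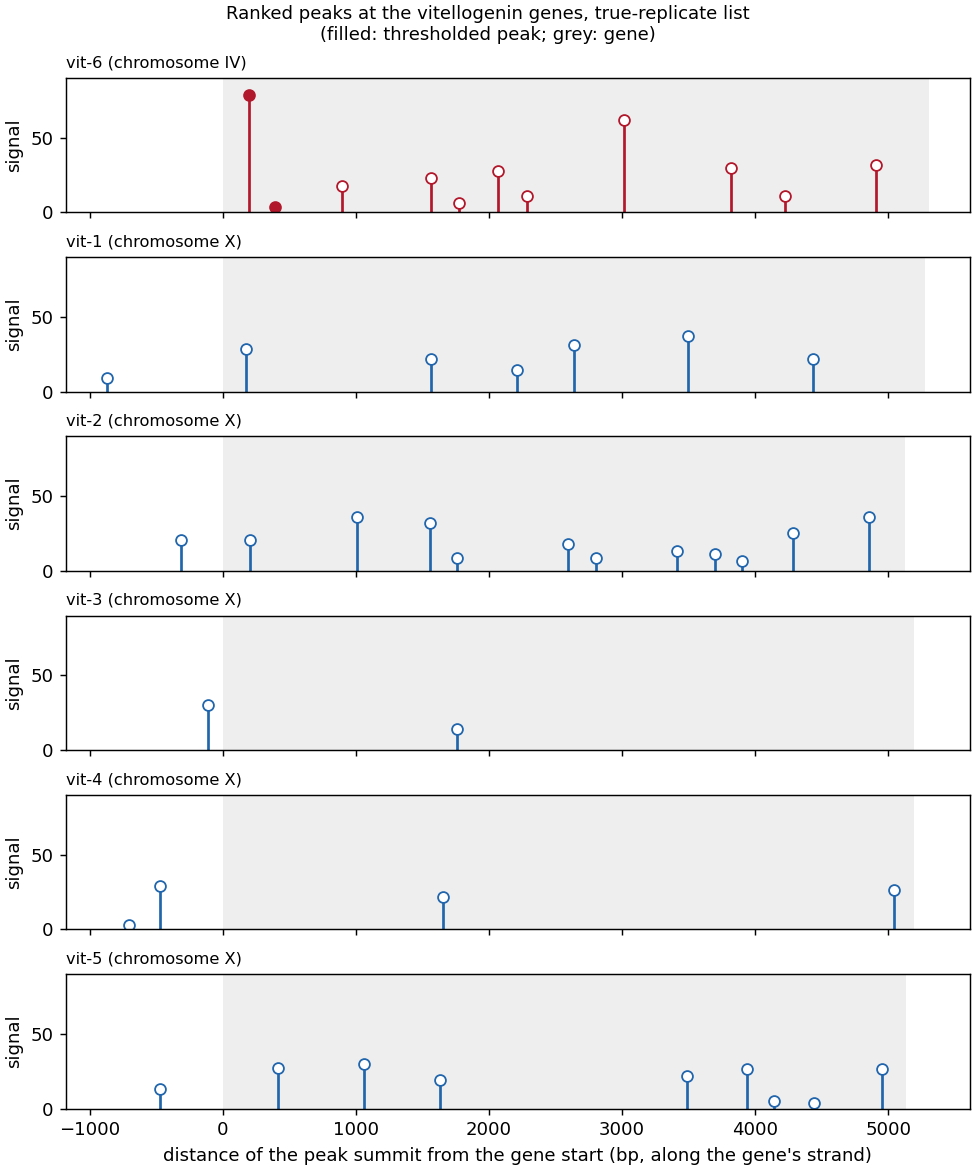
Ranked peaks of the true-replicate list at each vitellogenin gene, with the distance of the summit from the gene start in bp on the x axis and the authors' signal on the y axis, vit-6 on top in red and the X members below in blue. Filled points are thresholded peaks, open points are other ranked peaks and grey marks the gene. The 2 filled points, at +194 bp with a signal of 78.5 and at +395 bp with a signal of 3.83, are both in vit-6.

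A second thresholded peak of the true-replicate list lay beside the first, with its summit at +395 bp in exon 2. Its signal was 3.83, and its IDR of 0.00184 was near that of its neighbour. For both peaks the list gives the same pair of replicate signals, 39.1 and 42.5, so the weak peak was matched to the replicate peaks of the strong one. In the pooled list the weak peak had an IDR of 0.63 and was not kept. Such pairs were common, since 46 of the 240 thresholded peaks shared both replicate signals with another thresholded peak. All 21 of the thresholded peaks with a signal below the list's median of 17.0 were among those 46. The 2 vit-6 peaks are therefore counted here as 1 site.

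The sequence within 100 bp of the strong vit-6 summit, at +194 bp, held no whole SMAD core. GTCT or AGAC occurred 0 times within 50 bp of the summit and 0 times within 100 bp. Of all 240 thresholded summits, 50.4% held at least 1 match within 50 bp, against 39.9% of the 100792 lower-ranked summits. The whole vit-6 peak held 1 match, which stands in capitals in the vit-6 peak sequence above and begins at the edge of the 100 bp window. The weak summit at +395 bp, counted as the same site, held 1 match within 50 bp. A missing match says only that these letters are not in the window. The content of G and C in the 201 bp around the summit was 40.8%, against medians of 46.8% at thresholded summits and 38.3% at lower-ranked ones.

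No ranked summit lay in the 1000 bp upstream of vit-6 in any of the 4 lists, although the promoter there holds both VPE1 and VPE2. A noncoding gene, K07H8.16, lies just upstream at IV 8261007 to 8261150 on the minus strand and does not overlap vit-6. Its start was 201 bp from the summit, so the site lies near the starts of both genes, vit-6 and K07H8.16. The nearest other protein-coding gene by its start was K07H8.7 on the minus strand, whose start was 1347 bp from the summit. tRNA, snRNA, snoRNA and rRNA genes were distant from all members, with the nearest at 6992 bp from the window of vit-6 and at 14347 to 132791 bp from those of the X members.

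A strong ranked peak lay far inside vit-6. Its summit was at +3018 bp in exon 3, within IV 8264013 to 8264336, and its signal was 61.9, which ranked 272 of 101032. It did not pass the threshold, with an IDR of 0.624 in the true-replicate list and 0.0205 in the pooled list. In replicate 1 alone the place was split into a peak at +2892 bp with a signal of 37.5 and a peak at +3095 bp with a signal of 8.68. In replicate 2 alone a single peak stood at +3053 bp with a signal of 29.7. The true-replicate list set 8.68 and 29.7 beside each other for this site, so it used the weaker of the neighbouring peaks of replicate 1. The IDR in that list thus belongs to a pair without the peak that had a signal of 37.5. The vit-6 body sequence above, centred on this summit, holds 1 match to AGAC.

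The remaining vit-6 peaks had lower signals than these sites. The true-replicate list had 11 ranked peaks in the vit-6 window, and the other 8 had signals from 6.56 at +1777 bp to 31.9 at +4907 bp. Of the 11 summits, 10 lay in exons and 1 in an intron. Replicate 1 alone had 7 ranked peaks in the window and replicate 2 alone had 6, and apart from the sites near the start and near +3018 bp none of them exceeded a signal of 25.8. That peak, at +4905 bp in replicate 2, ranked 1964 of 57612 and stood above the strongest peak of every X member in that replicate, 21.9 in vit-2.

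**Figure D2:**
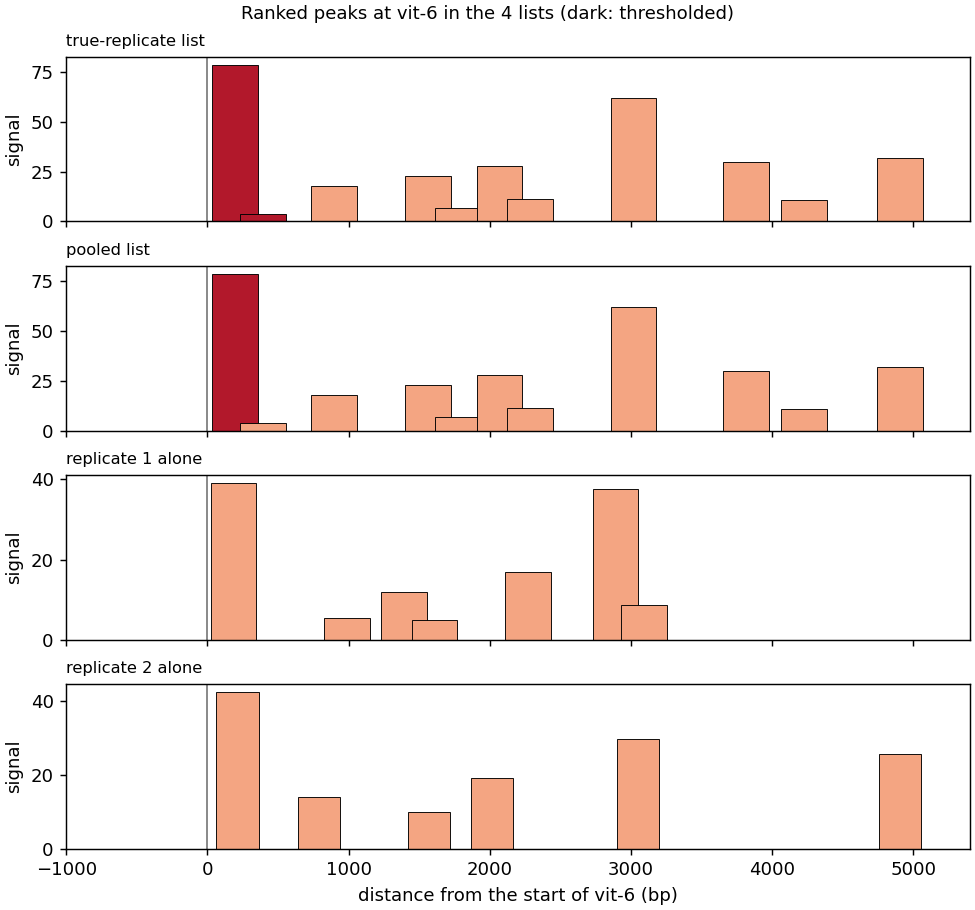
Ranked peaks at vit-6 in the true-replicate list, the pooled list, replicate 1 alone and replicate 2 alone, from top to bottom, each drawn as a bar as wide as the peak, against the distance from the gene start in bp, with the authors' signal on the y axis of each panel and thresholded peaks in dark red. The tallest bar stands at the start of the gene in all 4 panels, with signals of 78.5, 78.5, 39.1 and 42.5, and none stands upstream of it.

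The strongest peak of vit-6 stood above those of the X members in all 4 lists. In the true-replicate list the strongest peak had a signal of 78.5 in vit-6, 37.4 in vit-1, 36.4 in vit-2, 30.6 in vit-3, 29.6 in vit-5 and 29.1 in vit-4, against a median of 27.8 over all genes with a ranked peak. vit-6 thus exceeded the highest X member by 41.1, or 2.10 times. In replicate 1 alone vit-6 had 39.1 and the highest X member, vit-2, had 26.9. In replicate 2 alone vit-6 had 42.5 and vit-2 had 21.9. The ratio of vit-6 to the highest X member was 1.45 in replicate 1 and 1.94 in replicate 2, a mean of 1.70 ± 0.342 (SD, n = 2), and the difference was 12.2 and 20.6, a mean of 16.4 ± 5.90 (SD, n = 2). vit-6 was above every X member in both replicates, and the replicate ranges did not overlap. With 1 autosomal member and 2 replicates no test was made.

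Among the X members the order changed between lists. vit-2 had 26.9 in replicate 1 and 21.9 in replicate 2 (24.4 ± 3.51, SD, n = 2). vit-1 had 17.0 and 20.5 (18.8 ± 2.46, SD, n = 2). vit-5 had 17.5 and 17.2 (17.4 ± 0.256, SD, n = 2), inside the range of vit-1. vit-4 had 15.2 and 13.9 (14.5 ± 0.924, SD, n = 2). Over genes with a ranked peak the medians were higher, 16.1 in replicate 1 and 17.2 in replicate 2. With genes without a ranked peak counted as lower, 56.4% of all genes were below vit-4 in replicate 1 and 41.2% in replicate 2. vit-3 had 21.2 in replicate 1 and no ranked peak in replicate 2. The means of vit-2 and vit-1 lay within their summed SDs of each other, and in the pooled reads vit-1 stood above vit-2.

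**Figure D3:**
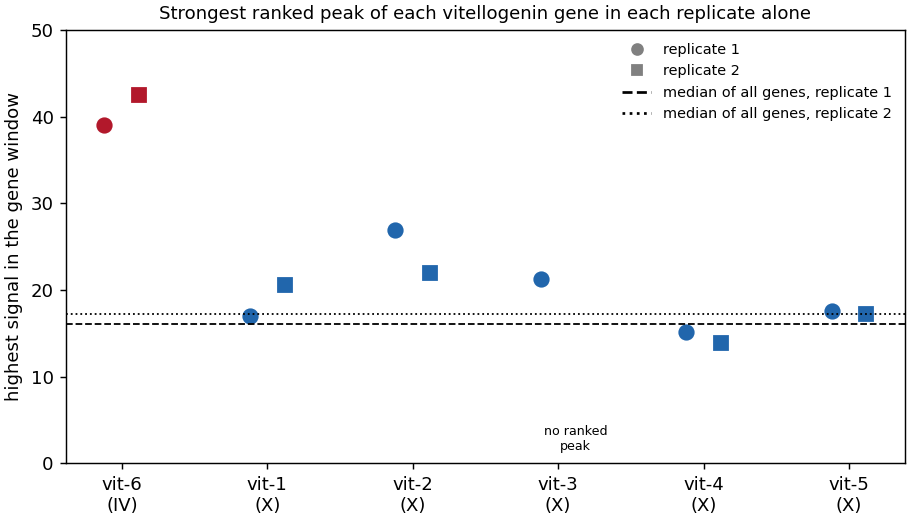
Signal of the strongest ranked peak in the window of each vitellogenin gene on the y axis, in replicate 1 alone (circles) and replicate 2 alone (squares), with vit-6 in red at the left and the X members in blue. The lines are the medians over all genes with a ranked peak, 16.1 in replicate 1 and 17.2 in replicate 2. vit-6 had 39.1 and 42.5, above all X members, of which vit-3 had no ranked peak in replicate 2.

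The strongest peaks of the X members were not at a shared place. That of vit-1 was at +3498 bp in exon 3 with an IDR of 0.269. That of vit-2 was at +4855 bp in exon 5 with an IDR of 0.124, and a peak of almost the same signal, 36.0, stood at +1007 bp in exon 2. That of vit-5 was at +1062 bp in exon 2 with an IDR of 0.497. Those of vit-3 at −109 bp and vit-4 at −475 bp lay upstream, with IDRs of 0.402 and 0.827. The vit-3 peak covers the promoter sequence printed above with its VPE1 match. All of these IDRs were far above the threshold.

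The place of the strongest peak also moved between the replicates in most X members, while in vit-6 it lay at +184 bp in replicate 1 and at +213 bp in replicate 2. In vit-1 it lay at +180 bp in replicate 1 and at +3496 bp in replicate 2. In vit-2 it lay at +2528 bp in replicate 1 and at +4188 bp in replicate 2. In vit-5 it lay at +4912 bp in replicate 1 and at +3922 bp in replicate 2. In vit-4 it lay upstream in both, at −367 bp in replicate 1 and at −481 bp in replicate 2. The single strongest site of vit-3 in replicate 1 was at +646 bp in exon 1, so the peak at −109 bp of the pooled reads was not the strongest one there. The IDR of the strongest peak was 0.0254 in vit-6 and 0.252 to 0.821 in the X members in replicate 1, and 0.0128 in vit-6 and 0.601 to 0.929 in the X members in replicate 2.

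The X members had 34 ranked peaks together in the true-replicate list, 28 with summits in exons and 6 upstream. Signals had a median of 21.9 in the exons, with a highest of 37.4, and a median of 16.8 upstream, with a highest of 30.6. In a promoter window of 1000 bp before and 250 bp after the gene start, vit-6 kept its signal of 78.5 and the highest X member was vit-3 with 30.6. There 1 of 6 members, vit-6, had a thresholded peak, against 0.436% of all genes. Nearest to the place of the vit-6 site, vit-1 had a peak at +176 bp with a signal of 28.8 and vit-2 one at +205 bp with a signal of 20.4. In replicate 1 alone the peaks there had signals of 17.0 in vit-1 and 14.8 in vit-2. Replicate 2 split both places, with signals of 9.33 at +59 bp and 5.24 at +272 bp in vit-1, and of 10.7 at +72 bp and 8.31 at +272 bp in vit-2. The true-replicate list paired the weaker neighbour, 5.24 or 8.31, in each case. Somewhat farther in, vit-5 had a peak at +413 bp with a signal of 27.3. In the replicates alone it had 14.9 at +439 bp in replicate 1 and 15.1 at +395 bp in replicate 2. A candidate peak near the start was thus also seen in vit-1, vit-2 and vit-5, at less than the signal of the vit-6 site in both replicates.

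Genes of like length were set beside the members. Of the 2274 genes with windows of 5 to 7.5 kb, 32 had a thresholded peak in the true-replicate list, or 1.41%, and vit-6 was 1 of 17 genes with a strongest peak at or above 78.5. Within 20% of its own window length, 99.3% of genes had a lower strongest peak than vit-6. The corresponding shares were 76.5% for vit-1, 73.6% for vit-2, 49.2% for vit-3, 44.9% for vit-5 and 42.0% for vit-4. In replicate 1 alone the share was 99.1% for vit-6 and 94.1% for vit-2, and in replicate 2 alone it was 99.4% for vit-6 and 74.3% for vit-2, so vit-2 stood high among genes of like length in replicate 1. By chromosome, 1.12% of genes with such windows had a thresholded peak on IV and 1.12% on X in the true-replicate list, and 0.84% on IV and 1.35% on X in the pooled list. Over genes of all lengths the true-replicate list gave 0.549% on IV and 1.10% on X. Over genes with such windows and a ranked peak, the median of the strongest peaks was 31.0 on IV and 31.1 on X in the true-replicate list.

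**Figure D4:**
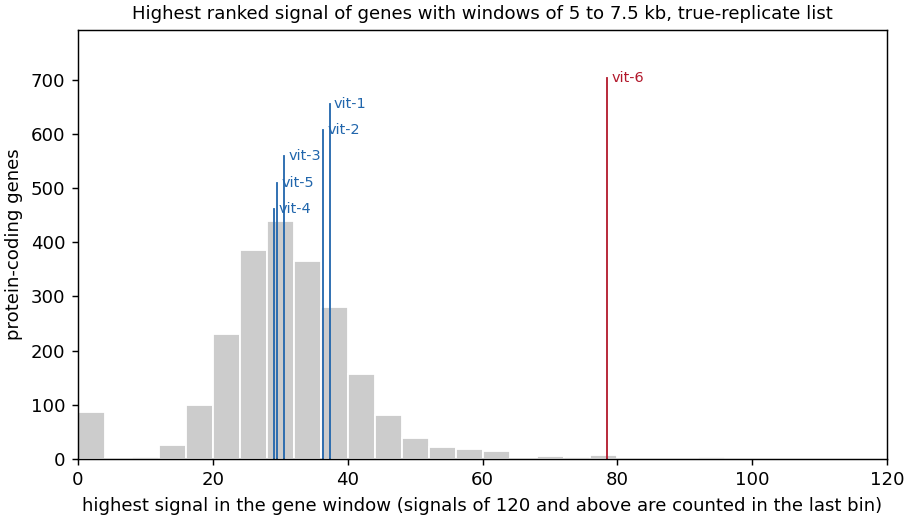
Number of protein-coding genes with windows of 5 to 7.5 kb on the y axis by the signal of their strongest ranked peak in the true-replicate list on the x axis, with genes without a ranked peak at 0. The red line marks vit-6 at 78.5 and the blue lines the X members between 29.1 and 37.4, beside quartiles of 25.2 and 37.0 over all these genes.

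The X members fall into groups of close copies. The coding sequences of vit-3 and vit-4 were 99.0% identical, with 48 mismatches and 0 gaps. That of vit-5 was 97.8% identical to that of vit-4 and 97.7% to that of vit-3, and those of vit-2 and vit-1 were 94.0% identical to each other. Between vit-1 or vit-2 and vit-3, vit-4 or vit-5 the identity was 69.3% to 70.3%. The coding sequence of vit-6 was 61.4% to 62.1% identical to those of the X members. The promoters had diverged further, with 76.4% identity between vit-4 and vit-3.

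A read from these copies may fit several places, and the sources used here do not say how the authors treated such reads. In the vit-6 window 100% of 50-base stretches occurred at a single place in the genome. The share was 89.3% for vit-1, 89.0% for vit-2, 59.0% for vit-5, 37.1% for vit-3 and 33.2% for vit-4, against a median of 100% over all genes. The shared sequence was in the gene bodies, where the unique share was 25.9% for vit-3 and 21.4% for vit-4, while the regions upstream were 98.9% to 100% unique. In the true-replicate list 0.101% of ranked peaks held no unique 50-base stretch, against 2.04% of the genome cut into tiles of 324 bp. Less than 50% of the stretches were unique in 2.96% of ranked peaks and in 7.92% of thresholded peaks, against 5.75% of the tiles.

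vit-3 and vit-4, which had the least unique sequence, had the fewest ranked peaks. The order did not hold throughout in the true-replicate list. There vit-4 had more peaks than vit-3, and vit-5 more than vit-1, with less unique sequence. vit-6 had 11 in the true-replicate list, vit-2 had 12, vit-5 had 9, vit-1 had 7, vit-4 had 4 and vit-3 had 2. Per kb of window this was 1.75 for vit-6, 1.96 for vit-2, 1.47 for vit-5, 1.11 for vit-1, 0.645 for vit-4 and 0.323 for vit-3. By count, 93.4% of genes of like length had fewer ranked peaks than vit-6, 4.99% had fewer than vit-3 and 12.9% had fewer than vit-4. For vit-5 the share was 80.3%, so its count was not low. The counts and signals of vit-3, vit-4 and vit-5 are uncertain, since the treatment of reads that fit several copies is unknown. In their strongest peaks the unique share of 50-base stretches was 83.0% for vit-3, 100% for vit-4 and 52.2% for vit-5. The part of the shared sequence in the counts and signals was not tested.

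**Figure D5:**
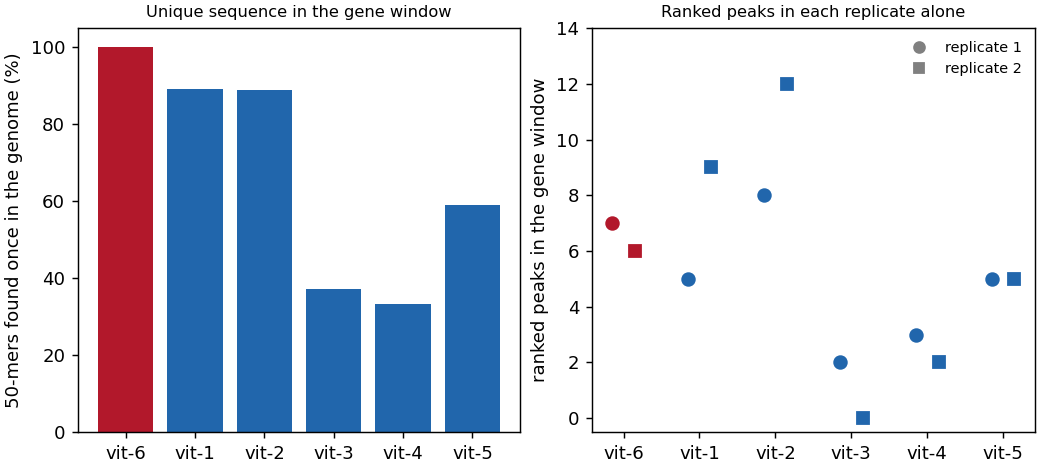
Left, share of 50-base stretches in each gene window that occur at a single place in the genome, in percent, with vit-6 in red and the X members in blue. Right, number of ranked peaks in each window in replicate 1 alone (circles) and replicate 2 alone (squares). vit-3 and vit-4, with 37.1% and 33.2% unique sequence, have the fewest ranked peaks.

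15 other genes of the yolk pathway were read in the same windows: 10 that act on vitellogenin transcription, 4 of yolk uptake and 1 of lipoprotein assembly. 2 of the 15 had a thresholded peak in the true-replicate list, ceh-60 and lin-29, beside the background of 0.846% of all genes. The list of 15 was written with earlier results of these data known, so this count is a description only. Both were from the transcription group, 0 of the uptake and assembly genes had one, and the same count of 2 was found in the pooled list. In each replicate alone the count was 0 of 15. The median of the strongest peaks over the 15 genes was 38.3, with a range of 23.3 to 74.7, against 27.8 over all genes with a ranked peak. Over genes with a ranked peak, the median strongest peak was 25.9 for windows under 5 kb. It was 34.4 for windows of 7.5 to 15 kb and 39.4 for windows over 15 kb. The shares of all genes with a thresholded peak in these classes were 0.636%, 1.53% and 2.64%. The part of window length in the median of the 15 genes was not tested.

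ceh-60 encodes a PBC-class homeodomain protein that acts with UNC-62 on vitellogenin transcription. Its thresholded peak, with a signal of 68.6 and a low IDR of 0.00692, lay at X 6522858 to 6523181, at +7126 bp from the gene start and outside the annotated exons. The overlapping peaks of the replicates alone had signals of 38.3 in replicate 1 and 28.7 in replicate 2. lin-29 encodes a zinc finger protein of the heterochronic pathway, which times the transition from larva to adult. Its strongest thresholded peak had a signal of 74.7 (IDR 0.00924) and lay at II 11917629 to 11917952, at +17552 bp from the start in an exon, with 45.3 in replicate 1 and 25.1 in replicate 2. In replicate 2 alone the strongest lin-29 peak lay elsewhere, at +6781 bp with a signal of 31.1. A thresholded peak with a signal of 2.41 lay beside the strong one and shared its pair of replicate signals. The lin-29 window is 18.7 kb long. The strong peaks of ceh-60 and lin-29 thus lay more than 5 kb from the gene start, while that of vit-6 lay close to it. With a ceh-60 window of 8.55 kb, both lay towards the far end of their gene. The genes beyond those ends were not examined, so a site of a neighbouring gene cannot be told apart.

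The third strongest of these genes was rict-1, which encodes the Rictor subunit of TORC2, a kinase complex known to act on yolk production. Its strongest peak had a signal of 57.1 at +8235 bp and an IDR of 0.0215, above the threshold, and another protein-coding gene, pqn-32, overlaps the summit. rme-2, the oocyte receptor for yolk, had a strongest peak of signal 33.5 (IDR 0.637). In the promoter window, 0 of the 15 genes had a thresholded peak, against 0.436% of all genes.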

How the data were processed

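The files are ChIP-seq peak lists on ce11 from 2 biological replicates of 1 group. The signal is the authors' deposited value. The deposited score of a peak is a whole number that falls with rising IDR, and the −log10 of the IDR is a separate deposited column. Not given in the sources used here: aligner, peak caller, scaling of the signal, kind of control and read depth. Text deposited with the lists names 1 file as a source for both replicates in addition to each one's alignments, and 1 more annotation file for the thresholded lists. The layout of the true-replicate list does not say which compared list is which replicate. By value, list 1 equals replicate 1 and list 2 replicate 2. Peaks were 324 bp wide (300 bp in replicate 2), so summits are peak centres.

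Summits were assigned to windows of protein-coding genes (Ensembl release 115) with Python 3.11.15, pandas 2.3.3, NumPy 2.4.6 and Biopython 1.88, tested on simulated data. Distances run along the gene from its first base, and motif positions name the first base of a match. No test was made, since there is 1 group. The members and lists were chosen with earlier results of these data known. Named were all 6 members in every list and, of the yolk list, the 3 with the highest signal and any with a thresholded peak. Genes next to a thresholded peak were named for member windows only. rme-2 was named for its role after its values were seen. Alternatives were other lists, windows, IDR limits and motif windows.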

Additional observations from a re-analysis of the deposited data

How the results depend on the processing

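Signals are comparable within a list, and 2 replicates without read depths limit what a difference can show. Across other windows (500 or 2000 bp upstream, any overlap) and in the pooled list, the counts of members and the strongest signals stayed as reported. Members with a thresholded peak numbered 0 at an IDR of 0.001 and 0 with either replicate left out. With a replicate left out, the strongest vit-6 signal was 39.1 to 42.5, the strongest X member signal 21.9 to 26.9 and their difference 12.2 to 20.6, on the scale of single replicates. Within the promoter window (1000 bp upstream to 250 bp downstream), the strongest X member had 30.6 and the difference was 47.9. Yolk list genes with a thresholded peak numbered 0 in the promoter window, 0 at an IDR of 0.001 and 0 with either replicate left out, and 3 at an IDR of 0.05. GTCT or AGAC occurred 1 time over the whole vit-6 peak. The difference between vit-6 and the highest X member stayed positive in every alternative in which it was taken. Counts and signals cannot fall below 0, so a change of direction was not possible for them. No paired analysis was possible because there is 1 group.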
